A study of Tabanus nipponicus with 3 samples.

Results

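The innate immune genes of a blood-feeding fly gut are described here: 69 of the 8039 unigenes measured in the midgut of Tabanus nipponicus, a horse fly. Unigenes are transcripts put together from the sequencing reads themselves. The 69 were chosen by the name of their best protein hit alone, with words for microbe sensors, lectins, scavenger receptors, lysozymes and parts of the Toll, IMD and JAK-STAT pathways. No expression value entered the rule, though it was set with earlier results of these data known. RNA sequencing was done on 3 adult females caught in the wild, each given as wild type (WT), with 1 midgut library per fly and no treatment contrast. They form 1 group, called flies 1, 2 and 3, and the question the data can answer is how strongly each immune gene was expressed in this tissue and how far individuals differed. For age and feeding state the labels hold no entry, so flies from the wild may differ in both. Levels are FPKM, read numbers per length of transcript and per depth, and unigenes can therefore be compared with each other on that scale.

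Insect immunity starts with proteins that bind molecules of the microbial surface. In Drosophila, glucan sensors and short peptidoglycan-recognition proteins feed a chain of serine proteases that cuts the ligand spaetzle, which then activates the receptor Toll, the adaptor MyD88, the kinase pelle and, once the inhibitor cactus is degraded, the factor dorsal or its relative Dif. Long peptidoglycan-recognition proteins start the IMD pathway, the main antibacterial route of the fly gut, through the adaptor imd, FADD, the caspase Dredd and the factor Relish. JAK-STAT signalling passes from the receptor domeless to the kinase hopscotch and is known in the gut for epithelial renewal.

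By role, 23 members were lectins, 16 carried peptidoglycan in their name, 11 belonged to the Toll pathway, 4 were glucan sensors, 4 were scavenger receptors or hemocytin, 3 were lysozymes, 1 was a thioester protein and 1 was the JAK-STAT kinase. The 6 others were thioesterases, metabolic and ubiquitin-cutting enzymes matched only by the letters of the word thioester. No unigene matched ficolin, Relish, TAK1, STAT or domeless by name, which says only that these words are not in the first title of a hit. The names come from other animals. The best hits came from 22 species, and 22 members had theirs in the black soldier fly Hermetia illucens (31.9%, beside 52.7% of all unigenes). Median identity to the hit was 51.7%, beside 65.5% over all unigenes, with a range of 28.8% to 83.3%, and 31 members were under 50%. Some names recurred, since 21 members shared 8 best hits among them, so the split of reads between similar copies is uncertain. Member sequences are not used here.

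The libraries held 29308867 to 33797869 reads recovered from the FPKM steps. At this depth the median counting error of a member, over the 3 flies, was 5.52%. The 23 members with fewer than 100 reads in a fly were less precise. The tissue label was checked with digestive enzymes. The 54 unigenes named for trypsins, carboxypeptidases, maltases and peritrophic proteins summed to 13293, 14226 and 9568 FPKM in flies 1, 2 and 3. Names of other tissues were present too. The 5 salivary names summed to 13875, 9417 and 10427 FPKM, and the single ovary name, a chorion protein, was at 3.28 FPKM in fly 1 and at 0 in flies 2 and 3. Fly 3 stood apart from the others over the whole table, with the highest value for 66.5% of all unigenes. Median-of-ratios scaling, which sets the typical unigene equal between libraries by dividing by 0.976, 0.838 and 1.27, lowered that to 41.1%. The median over all unigenes of fly 3 minus the mean of flies 1 and 2 was 0.43 on the scale log2(FPKM + 1) as deposited and 0.02 after that scaling. Values of members in fly 3 stand against this shift.

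The members were expressed at moderate levels. Flies 1, 2 and 3 gave them 0.239%, 0.293% and 0.530% of all FPKM, a mean of 0.354% ± 0.155 (SD, n = 3). Fly 3 had the highest share and fly 1 the lowest. The median member had a mean of 11.9 FPKM, against 8.69 for all unigenes, and 50 of 69 members (72.5%) reached an FPKM of 1 in every fly, below the 81.6% of all unigenes. In 3 members (4.35%, beside 3.26%) no fly reached it. Summed levels by role, in the bar chart, show where this RNA lay. Lectins were the largest role in each fly at 871, 1258 and 1516 FPKM. C-type lectins alone made up 56.7%, 66.8% and 43.9% of the members' FPKM in flies 1, 2 and 3. The glucan sensors moved most, from 9.71 FPKM in fly 1 to 72.3 in fly 2 and 646 in fly 3. A single gene, gram-negative bacteria-binding protein 3, held 0.590%, 3.27% and 16.8% of the members' FPKM. Without it the share of all FPKM was still highest in fly 3 as deposited, at 0.237%, 0.284% and 0.441%. These sums and shares were not rescaled and include the shift of fly 3 over the whole table. After median-of-ratios scaling the median lectin was 0.39 (log2) above the mean of the others in fly 2. In fly 3 it was 0.07 below that mean.

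**Figure D1:**
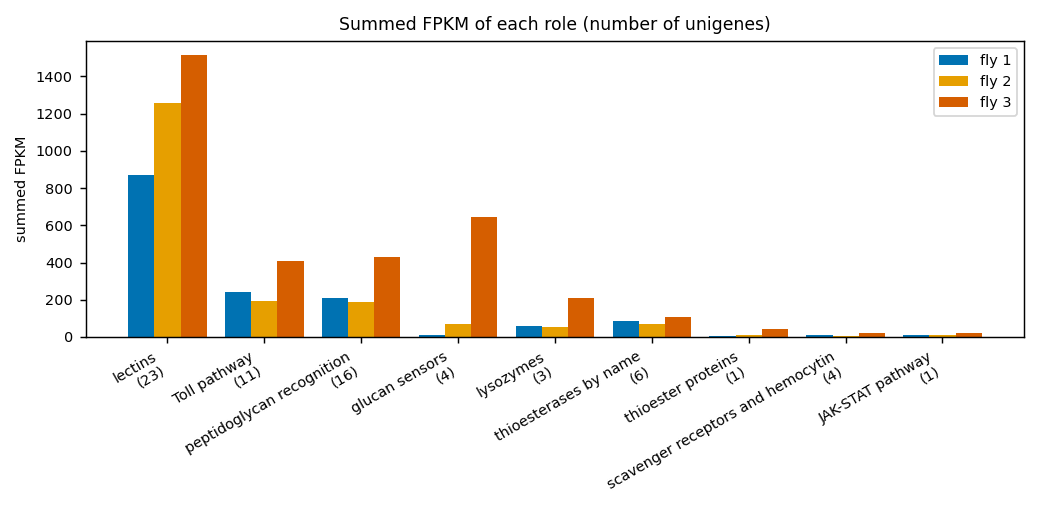
Summed FPKM of each role (vertical axis, linear from 0) in flies 1, 2 and 3 (bars), with the number of unigenes of each role in brackets. Lectins are the tallest group in each fly, and the glucan sensors go from 9.71 in fly 1 to 646 in fly 3.

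Large differences between individuals were frequent. The highest and lowest fly were at least 4-fold apart, in FPKM + 1, for 18 of 69 members (26.1%), beside 9.33% of all unigenes. A 2-fold gap was present in 39 members (56.5%), beside 32.2%. The median SD between flies was 0.60 on the log2 scale, beside 0.38. Without fly 3 the 4-fold count was lower for members and for all unigenes alike. Between flies 1 and 2 alone, 7 members (10.1%) were 4-fold apart, beside 2.95% of all unigenes. Fly 3 had the highest value for 47 members (68.1%), close to the background of 66.5%, so the number of members highest in that fly is not a result about them. It was 33 (47.8%) after median-of-ratios scaling, beside 41.1%. Fly 1 was highest for 9 (13.0%, beside 21.3%) and fly 2 for 13 (18.8%, beside 12.3%). Fly 1 was lowest for 27 members (39.1%, beside 26.9%), fly 2 for 34 (49.3%, beside 56.8%) and fly 3 for 7 (10.1%, beside 15.9%). Large excesses were a different count. Fly 3 was at least 2-fold above both others for 22 members (31.9%), beside 12.7%, and this was so for 1 member in fly 2 (1.45%, beside 0.386%) and for 0 in fly 1 (beside 0.883%). Fly 1 was at least 2-fold below both others for 10 members (14.5%), beside 3.04%, and fly 2 for 7 members (10.1%), beside 4.88%. Fly 3 was that far below for 0 members, beside 0.995%.

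Rescaling moved the size of these counts, kept most of the genes and added some. With median-of-ratios scaling, 16 members stayed 2-fold above both others in fly 3, beside 6.58% of all unigenes, and all 16 were among the 22. The 6 that dropped out were 3 lectins (TRINITY_DN59412_c0_g1_i1, TRINITY_DN443_c0_g1_i12 and TRINITY_DN10298_c0_g1_i2), peptidoglycan-recognition protein LE, protein toll and hopscotch. The 4-fold count became 17, beside 7.34%, of which 16 were among the 18. All 10 members low in fly 1 were still called, while 5 of the 7 low in fly 2 were. Members 2-fold above both others in fly 2 went from 1 to 4 (5.8%, beside 0.871% of all unigenes). The added ones were the lectins TRINITY_DN157_c0_g1_i24, TRINITY_DN3551_c0_g1_i14 and TRINITY_DN4563_c0_g1_i22. The median member's excess in fly 3 was 0.79 as deposited, beside 0.43 for all unigenes, and 0.39 after scaling, beside 0.02. The scatter of excess against level shows members of most roles on both sides of the median of all unigenes.

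**Figure D2:**
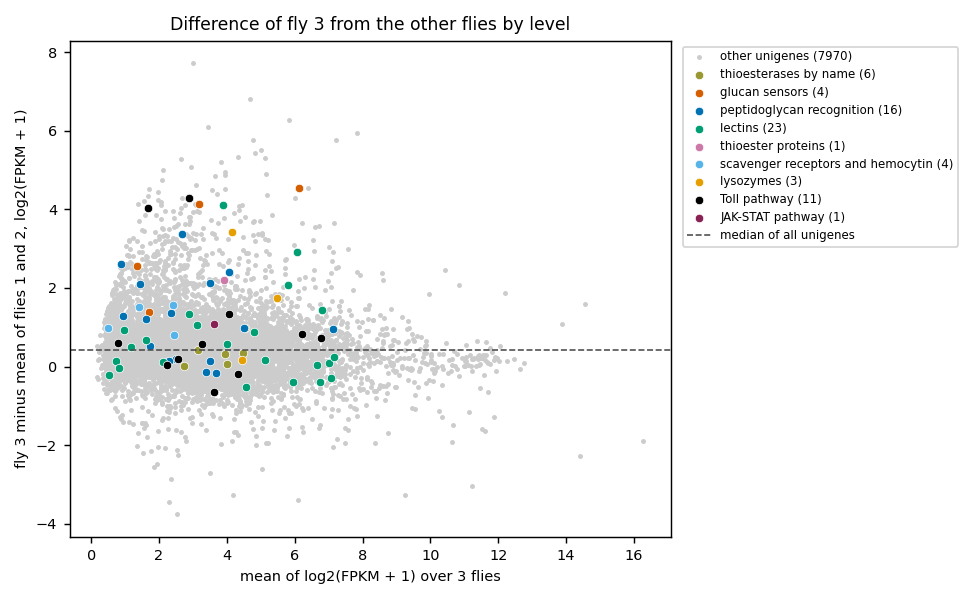
Each point is 1 unigene, with its mean log2(FPKM + 1) over 3 flies on the horizontal axis and its value in fly 3 minus the mean of flies 1 and 2 on the vertical axis (log2). Coloured points are the 69 members by role, grey points the other unigenes, and the dashed line is the median of all unigenes, 0.43. Glucan sensors and spaetzle unigenes reach above 4, and lectins spread from below 0 to above 4.

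Glucan sensors showed the widest range of any role. Gram-negative bacteria-binding protein 3 (TRINITY_DN1937_c0_g1_i7), whose Drosophila namesake binds fungal glucans and feeds the Toll pathway, stood at 8.86, 60.95 and 573 FPKM in flies 1, 2 and 3. Its 462, 3364 and 27414 reads put that gradient far beyond counting error, and it was the member with the highest mean, 214 ± 312 FPKM (SD, n = 3). Each of the other 3 glucan sensors, all named beta-1,3-glucan-binding protein-like, had the same order of flies. The first of them (TRINITY_DN4722_c0_g1_i6) was at 0.510, 7.003 and 60.5 FPKM in flies 1, 2 and 3. Another (TRINITY_DN16317_c0_g1_i6) was at 0.240, 3.53 and 5.17 FPKM, with flies 2 and 3 near each other and fly 1 alone low. The last (TRINITY_DN16068_c0_g1_i1) was at 0.102, 0.770 and 7.29 FPKM, the first of these from 6 reads. All 4 differed at least 4-fold between flies, beside 9.33% of all unigenes, and 21.6% of all unigenes had their order of flies. All 4 had different best hits, so their common order is not that of 1 hit. Median-of-ratios scaling kept the order in all but TRINITY_DN16317_c0_g1_i6, where fly 2 came out above fly 3.

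The same order of flies appeared in the sums of some lists of names for tissues other than the midgut, not of all. In a midgut library fewer cells of a type and less RNA per cell cannot be told apart. The 10 fat body names summed to 7.08, 24.7 and 97.6 FPKM in flies 1, 2 and 3. Apolipophorins, lipid carriers of the blood (TRINITY_DN9332_c0_g1_i15), were at 0.619, 13.8 and 64.1 FPKM, the larger part of the sum in flies 2 and 3 but not in fly 1. Among the defining fat body names, vitellogenin and hexamerin unigenes stayed between 0 and 12.4 FPKM, with 1 of 10 at 0 in fly 1. The 17 Malpighian tubule names summed to 191, 277 and 368 FPKM. Uricase (TRINITY_DN8991_c0_g1_i5), an enzyme of that organ, was at 0.0450 (2 reads), 23.2 and 146 FPKM, but the list was mixed. Of the 17, fly 1 held the highest value of 1, fly 2 of 8 and fly 3 of 8, beside 21.3%, 12.3% and 66.5% of all unigenes. The 20 hemocyte names, none at 0, summed to 130, 111 and 274 FPKM, lowest in fly 2. The 13 muscle names, none at 0, summed to 344, 374 and 767. The part of these tissues in the levels of the immune genes was not tested.

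The peptidoglycan-recognition proteins, PGRPs, differed among themselves in level and in spread between flies. PGRP LB (TRINITY_DN8975_c0_g1_i6), in Drosophila an enzyme that cuts peptidoglycan and damps the IMD response of the gut, was the most abundant at 112, 112 and 217 FPKM in flies 1, 2 and 3. The 14 PGRP unigenes summed to 189, 171 and 411 FPKM, so PGRP LB outweighed all the others combined in each fly. Flies 1 and 2 did not differ in it, and fly 3 was 1.94-fold above the lowest in FPKM + 1.

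Of the 6 unigenes named for the LC, LA and LE sensors of the IMD branch, 3 were even between flies and 3 were not. PGRP LC (TRINITY_DN4801_c0_g1_i22), the membrane receptor of the pathway in Drosophila, was at 11.6, 13.2 and 10.9 FPKM in flies 1, 2 and 3, a mean of 11.9 ± 1.19 (SD, n = 3). PGRP LA (TRINITY_DN23555_c0_g1_i11) was at 5.14, 3.84 and 5.21 FPKM. Neither differed by as much as 1.5-fold between flies. PGRP LE, an intracellular sensor of the Drosophila gut, was named by 3 unigenes with unlike profiles. The one with the highest mean (TRINITY_DN26582_c0_g1_i17) was at 10.2, 3.28 and 29.0 FPKM, lowest in fly 2 and highest in fly 3. A second (TRINITY_DN10311_c0_g1_i13), with the same best hit and an overlapping alignment, was flat at 3.35, 4.18 and 4.24 FPKM. The third (TRINITY_DN3355_c0_g1_i16) was at 2.22, 3.40 and 8.60 FPKM. Fly 3 was 2-fold above both others in the first and the third as deposited, and in the first alone after median-of-ratios scaling. Of all unigenes, 12.7% and 6.58% had such an excess. An LC-like unigene (TRINITY_DN9869_c1_g1_i7) was at 1.81, 0.954 and 4.37 FPKM.

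PGRP SA names, for circulating sensors upstream of Toll in Drosophila, were carried by 6 unigenes. Of these, 3 were 4-fold apart (50%, beside 9.33% of all unigenes). Of the 6, 4 aligned to overlapping stretches of 1 protein of the fly Condylostylus longicornis, with 53.6% to 61.2% identity, and yet their profiles differed. One of these 4 (TRINITY_DN11221_c0_g1_i6) was at 32.6, 8.93 and 34.9 FPKM, low in fly 2 alone. Another (TRINITY_DN476_c0_g1_i6) was at 4.93, 14.4 and 50.1 FPKM, and a further one (TRINITY_DN2440_c0_g1_i7) at 0.740, 3.99 and 29.3. Both of the latter were lowest in fly 1 and highest in fly 3, the order of the glucan sensors, under each of the 3 scalings. The fourth (TRINITY_DN16044_c0_g1_i2), at 0.161, 0.761 and 2.46 FPKM, had that order at a much lower level, from 4, 20 and 56 reads.

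Of the remaining PGRP names, an SA-like unigene with another hit (TRINITY_DN15921_c0_g1_i1) was at 0 in flies 1 and 2, which allows up to 0.231 and 0.218 FPKM (3 fragments, counting error only), and at 5.11 in fly 3. A partial SA name (TRINITY_DN29371_c0_g2_i5) was at 3.86, 0.811 and 3.27 FPKM, again low in fly 2. A PGRP 2-like unigene (TRINITY_DN12496_c0_g1_i5) was at 0.0874, 1.60 and 6.25 FPKM, the first from 3 reads. In all, 5 of the 14 PGRP unigenes (35.7%) were 4-fold apart, beside 9.33% of all unigenes. These 3 and the LA, LC-like, flat LE-like, LE and low SA-like unigenes lay under the level set for naming and were chosen after their values were seen, to complete the family. The 2 lysM proteins, matched by the words peptidoglycan-binding, differed little: lysM protein 2 (TRINITY_DN981_c1_g2_i3) was at 10.1, 9.97 and 11.1 FPKM and lysM protein 3 (TRINITY_DN11042_c0_g1_i2) at 11.2, 8.58 and 8.79.

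**Figure D3:**
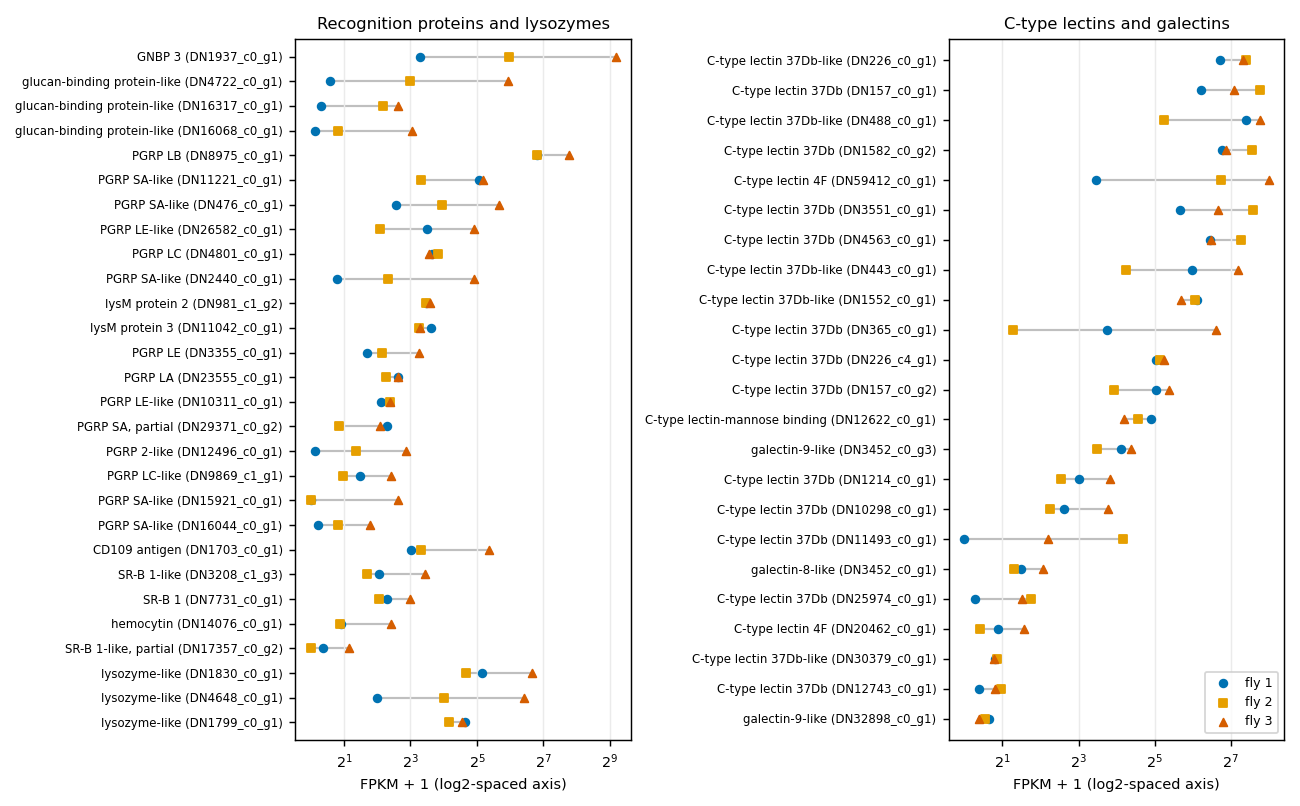
FPKM + 1 of each recognition unigene and lysozyme (horizontal, log2-spaced axis) in flies 1 (circles), 2 (squares) and 3 (triangles), joined by a grey line, on the left for glucan sensors, peptidoglycan names, CD109, scavenger receptors and lysozymes and on the right for lectins. GNBP 3 spans 8.86 to 573 FPKM, while PGRP LC stays between 10.9 and 13.2.

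C-type lectins, which bind sugars on cells and microbes, were the most numerous and most highly expressed sensors: 20 unigenes, 17 of them named 37Db after a Drosophila gene. Their sum was 852, 1246 and 1493 FPKM in flies 1, 2 and 3, and 9 of them had a mean of at least 50 FPKM. No fly was the high one throughout. Fly 1 held the highest value of 2 of them, fly 2 of 9 and fly 3 of 9, beside 21.3%, 12.3% and 66.5% of all unigenes. The median lectin of all 23, galectins included, was 0.26 higher in fly 3 than the mean of the others as deposited, under the 0.43 of all unigenes, and 0.07 lower after median-of-ratios scaling (-0.07, beside 0.02).

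A first pattern among the abundant lectins was a maximum in fly 2. C-type lectin 37Db (TRINITY_DN157_c0_g1_i24) was at 72.8, 218 and 134 FPKM in flies 1, 2 and 3. Another of that name (TRINITY_DN3551_c0_g1_i14) was at 50.1, 192 and 101 FPKM, 3.78-fold apart in FPKM + 1. A 37Db unigene with its hit in Drosophila persimilis (TRINITY_DN1582_c0_g2_i3) was at 109, 186 and 117 FPKM. For these, fly 2 was the highest and fly 1 the lowest as deposited. The unigene TRINITY_DN4563_c0_g1_i22, at 87.0, 153 and 87.4 FPKM, followed them. Median-of-ratios scaling kept fly 2 highest but made fly 3 the lowest in TRINITY_DN1582_c0_g2_i3 and TRINITY_DN4563_c0_g1_i22. The lectin with the highest mean, 144 ± 34.6 FPKM (SD, n = 3), was 37Db-like (TRINITY_DN226_c0_g1_i3) at 104, 169 and 159 FPKM. A low-level case was TRINITY_DN11493_c0_g1_i3, at 0 in fly 1, which allows up to 0.220 FPKM, 17.1 in fly 2 and 3.59 in fly 3. It was the only member of the 69 with fly 2 at least 2-fold above both others as deposited. After median-of-ratios scaling TRINITY_DN157_c0_g1_i24, TRINITY_DN3551_c0_g1_i14 and TRINITY_DN4563_c0_g1_i22 were so too.

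A second pattern was the reverse, a minimum in fly 2. The 37Db-like unigene TRINITY_DN488_c0_g1_i21 was at 169, 36.7 and 217 FPKM, and its like TRINITY_DN443_c0_g1_i12 at 62.3, 18.1 and 145. The widest was 37Db TRINITY_DN365_c0_g1_i21, at 12.5, 1.41 and 96.6 FPKM. In each of them fly 2 was at least 2-fold below both other flies, beside 4.88% of all unigenes. A weaker case was TRINITY_DN157_c0_g2_i2, at 31.9, 14.4 and 40.5 FPKM, which came from the same assembly cluster as the unigene highest in fly 2 at 218 FPKM. TRINITY_DN488_c0_g1_i21 shared its best hit with TRINITY_DN1552_c0_g1_i15, a lectin at 68.1, 65.2 and 50.7 FPKM, so lectins nearest to 1 protein did not share a profile.

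The lectin with the steepest gradient from fly 1 to fly 3 carried the name C-type lectin domain family 4 member F (TRINITY_DN59412_c0_g1_i1), with a best hit in the springtail Folsomia candida at 40.8% identity. It was at 9.92, 105 and 256 FPKM in flies 1, 2 and 3, from 236, 2648 and 5594 reads. The order was that of the glucan sensors. With median-of-ratios scaling fly 3 was still above fly 2 but no longer 2-fold above it. Other lectins were even: TRINITY_DN226_c4_g1_i10 was at 31.7, 33.9 and 36.9 FPKM. C-type lectin-mannose binding (TRINITY_DN12622_c0_g1_i20) was at 28.8, 22.4 and 17.4 FPKM. Other unigenes of the name 37Db were lower and highest in fly 3, TRINITY_DN1214_c0_g1_i1 at 7.14, 4.79 and 13.3 FPKM and TRINITY_DN10298_c0_g1_i2 at 5.14, 3.79 and 12.7. The 4 remaining C-type lectins had means of at most 1.47 FPKM. Galectins, which bind galactose sugars, were lower, with galectin-9-like (TRINITY_DN3452_c0_g3_i2) at 16.5, 10.2 and 19.8 FPKM, galectin-8-like (TRINITY_DN3452_c0_g1_i1) at 1.79, 1.46 and 3.18, and a second galectin-9-like (TRINITY_DN32898_c0_g1_i1) at 0.572, 0.450 and 0.311.

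The members named for proteins that coat or take up particles, CD109, scavenger receptors and hemocytin, were each highest in fly 3. That fly was also the highest for 66.5% of all unigenes. CD109 antigen (TRINITY_DN1703_c0_g1_i13), of the family of thioester proteins that includes the opsonins of insects, was at 7.16, 8.92 and 40.2 FPKM. Fly 3 stood apart and flies 1 and 2 were close. It was 5.05-fold apart in FPKM + 1 as deposited and under 4-fold after median-of-ratios scaling. Scavenger receptor class B member 1-like (TRINITY_DN3208_c1_g3_i3), of a family that takes up lipids and particles, was at 3.15, 2.25 and 9.92 FPKM, and a second (TRINITY_DN7731_c0_g1_i2) at 3.93, 3.18 and 6.86. A partial one (TRINITY_DN17357_c0_g2_i2) was at 0.284, 0 and 1.24 FPKM, where 0 allows up to 0.202. Hemocytin (TRINITY_DN14076_c0_g1_i12), a clotting protein made by blood cells in Drosophila, was at 0.877, 0.842 and 4.29 FPKM over 13219 bases. Of the phagocytic receptors outside the 69, 6 unigenes in all, 0 were 4-fold apart, beside 9.33% of all unigenes. Their most abundant were croquemort-like (TRINITY_DN4581_c0_g1_i37) at 49.5, 25.0 and 64.6 FPKM, draper (TRINITY_DN1564_c0_g1_i5) at 15.6, 8.54 and 27.0 and Dscam2 (TRINITY_DN3257_c0_g1_i20) at 7.27, 7.62 and 7.86.

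Lysozymes, which cut the peptidoglycan of bacteria and serve digestion as well as defence in some flies, were 3 unigenes. The most abundant (TRINITY_DN1830_c0_g1_i6) was at 34.3, 24.3 and 99.7 FPKM, 3.98-fold apart in FPKM + 1 and thus just under the 4-fold line. A second (TRINITY_DN4648_c0_g1_i1) was at 2.97, 15.0 and 85.0 FPKM, again in the order of the glucan sensors. The third (TRINITY_DN1799_c0_g1_i12) was even at 23.9, 16.7 and 22.6. Fly 3 was 2-fold above both others in the first and second, beside 12.7% of all unigenes. Cecropins, defensins and other antimicrobial peptides were matched by 0 unigenes.

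The Toll pathway differed most at its ligand. A spaetzle-like unigene (TRINITY_DN2518_c0_g1_i2) was at 1.51, 1.98 and 52.1 FPKM in flies 1, 2 and 3. A second with the same best hit (TRINITY_DN15774_c0_g1_i9) was at 0.107, 0.404 and 19.4 FPKM, from 4, 16 and 668 reads. The first was above an FPKM of 1 in each fly and the second in fly 3 alone, and both were far higher in fly 3 than in the others. Their excess in fly 3 over the mean of the others was 4.28 and 4.04 on the log2 scale, with flies 1 and 2 closer to each other than for the glucan sensors. Spaetzle 5 (TRINITY_DN10608_c0_g1_i2), a relative of spaetzle, stayed near the limit of detection at 1.06, 0.120 and 1.29 FPKM.

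Receptors and inner parts of the pathway varied far less. Protein toll (TRINITY_DN894_c0_g1_i16) was at 10.5, 11.8 and 29.9 FPKM, 2-fold above both others in fly 3 as deposited only. Toll-like receptor 6 was named by 2 unigenes, at 19.5, 20.9 and 17.5 FPKM (TRINITY_DN846_c0_g1_i5) and at 12.1, 14.5 and 8.05 FPKM (TRINITY_DN4344_c0_g1_i8). Both of these were lowest in fly 3, against the direction of protein toll, under each scaling. A unigene named toll-like receptor S precursor (TRINITY_DN1820_c0_g1_i5), with a hit in the mussel Mytilus galloprovincialis at 28.8% identity, was at 9.68, 5.72 and 11.7 FPKM. The adaptor MyD88 (TRINITY_DN8686_c0_g1_i12) was at 5.57, 3.77 and 5.40 FPKM, and its difference between fly 3 and the others changed sign with scaling.

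The inhibitor was the most abundant Toll gene. Cactus (TRINITY_DN3306_c0_g1_i39), which holds dorsal-type factors in the cytoplasm, was at 109, 78.8 and 153 FPKM, a mean of 113 ± 37.2 (SD, n = 3). The toll-interacting protein-like unigene (TRINITY_DN6344_c0_g1_i13), whose mammalian namesake damps Toll-like receptor signalling, was at 68.8, 52.9 and 108 FPKM. Both exceeded each Toll receptor and the adaptor in each fly, on the scale of FPKM. ECSIT (TRINITY_DN18257_c0_g1_i1), a mitochondrial protein linked to Toll signalling in mammals, was at 3.22, 4.13 and 3.77 FPKM. Of the 11 Toll members, the spaetzle-like pair alone was 4-fold apart (18.2%, beside 9.33% of all unigenes).

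The other Toll genes, listed by name and not by how they moved, split the same way. The 6 inside the cell were all within 2.29-fold, in FPKM + 1. A dorsal-like factor (TRINITY_DN111_c0_g1_i3), the target of cactus, was at 34.3, 28.1 and 41.1 FPKM. Cactin (TRINITY_DN2010_c0_g1_i13), a partner of cactus, was at 27.9, 19.9 and 40.0 FPKM. The kinase pelle (TRINITY_DN2316_c0_g1_i11) was lower, at 5.78, 5.74 and 7.16 FPKM. Tube (TRINITY_DN2104_c0_g1_i1), the adaptor next to pelle, was at 6.77, 3.44 and 2.40, the one with its lowest value in fly 3 besides pellino (TRINITY_DN5252_c0_g1_i44), at 13.0, 12.2 and 7.95. TRAF6 (TRINITY_DN7919_c0_g1_i18) was at 4.32, 3.75 and 8.62 FPKM.

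Outside the cell, the 32 serine proteases named easter, snake or persephone, after the Drosophila enzymes that process or act upstream of spaetzle, summed to 45.6, 83.5 and 538 FPKM in flies 1, 2 and 3. Of these, 22 were 4-fold apart and 31 were highest in fly 3, beside the backgrounds of 9.33% and 66.5%. The most abundant (TRINITY_DN874_c0_g3_i2, easter-like) was at 4.17, 11.5 and 136 FPKM. Such names cover many clip-domain proteases, a large insect family that also serves melanization, and the word easter or snake does not place a unigene in the Toll pathway. The broader list of melanization proteases and serpins, 41 unigenes that include the easter and snake names, summed to 75.3, 115 and 624 FPKM. In this list 24 (58.5%) were 4-fold apart, beside 9.33% of all unigenes. Its leading unigenes besides easter-like were a phenoloxidase-activating factor 2-like (TRINITY_DN10611_c0_g1_i10) at 5.86, 10.5 and 55.4 FPKM and a snake-like protease (TRINITY_DN1818_c0_g1_i40) at 13.5, 11.8 and 43.1.

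**Figure D4:**
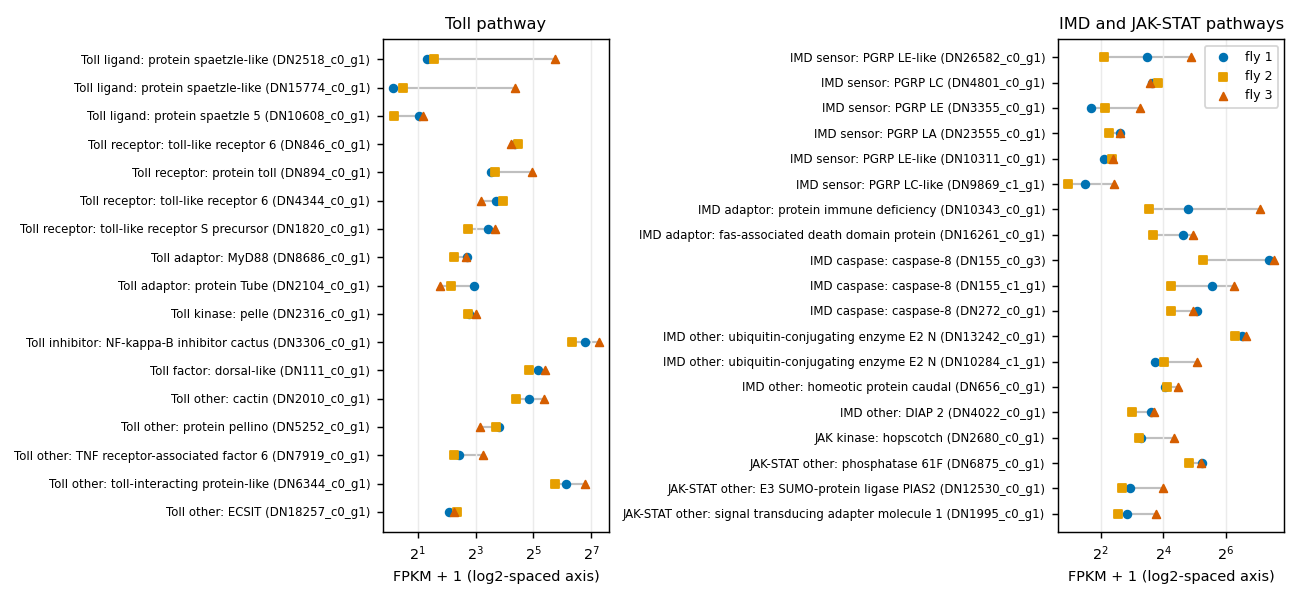
FPKM + 1 (horizontal, log2-spaced axis) of genes named for the Toll pathway (left) and the IMD and JAK-STAT pathways (right) in flies 1 (circles), 2 (squares) and 3 (triangles), members and other genes of the pathways together, easter, snake and persephone proteases, inhibitors of apoptosis 1-like and FAS-associated factor 2 left out. The spaetzle-like pair spans the widest range on the left, up to 52.1 FPKM, and protein immune deficiency on the right, from 10.8 to 137 FPKM.

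The IMD genes downstream of the sensors were not among the 69, since their names fall outside the words of the choice, and are given from a list of 15. Here the adaptor and the caspase were among the variable ones. Protein immune deficiency (TRINITY_DN10343_c0_g1_i16), the adaptor imd, was at 26.6, 10.8 and 137 FPKM in flies 1, 2 and 3. Caspase-8, the name given to relatives of Dredd, was carried by 3 unigenes, at 166, 37.7 and 186 FPKM (TRINITY_DN155_c0_g3_i1), 46.2, 18.04 and 75.6 (TRINITY_DN155_c1_g1_i12) and 33.2, 18.1 and 29.9 (TRINITY_DN272_c0_g1_i2). Each had its lowest value in fly 2 as deposited, as did 56.8% of all unigenes. FADD (TRINITY_DN16261_c0_g1_i1), which joins imd to the caspase, was at 23.7, 11.8 and 29.7 FPKM, lowest in the same fly.

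Of the 15, 4 were 4-fold apart (26.7%, beside 9.33% of all unigenes). These were imd, the first 2 caspase-8 unigenes and an inhibitor of apoptosis 1-like (TRINITY_DN5761_c0_g1_i9) at 122, 13.0 and 192 FPKM. After median-of-ratios scaling imd and that inhibitor were still 4-fold apart and the caspases were not. All 4 stayed 2-fold below both others in fly 2, beside 3.47% of all unigenes after that scaling. The most abundant of the list, another inhibitor of apoptosis 1-like (TRINITY_DN2063_c0_g1_i10), a name for proteins that block caspases, was even at 191, 172 and 185 FPKM. DIAP2 (TRINITY_DN4022_c0_g1_i11), the ubiquitin ligase of the IMD pathway in Drosophila, was at 11.2, 7.10 and 12.2 FPKM, and the ubiquitin-conjugating enzyme E2 N (TRINITY_DN13242_c0_g1_i3) at 90.7, 78.2 and 100.2. Caudal (TRINITY_DN656_c0_g1_i2), a gut homeobox factor that restrains antimicrobial peptide genes in Drosophila, was at 15.6, 16.5 and 21.2 FPKM. FADD, the third caspase, DIAP2, E2 N and caudal were chosen after their values were seen.

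JAK-STAT was represented among the 69 by its kinase alone. Hopscotch (TRINITY_DN2680_c0_g1_i3) was at 8.71, 8.33 and 19.2 FPKM, with flies 1 and 2 alike and fly 3 2-fold above both as deposited but not after median-of-ratios scaling. The 3 other genes of that pathway were not 4-fold apart, a gap that 9.33% of all unigenes had. Phosphatase 61F (TRINITY_DN6875_c0_g1_i2), which restrains the pathway in Drosophila, was at 36.5, 27.3 and 36.3 FPKM. PIAS2 (TRINITY_DN12530_c0_g1_i48), of a family that inhibits STAT factors, was at 6.64, 5.49 and 15.0, and signal transducing adapter molecule 1 (TRINITY_DN1995_c0_g1_i17) at 6.24, 4.91 and 12.7. Of the JNK branch, 3 unigenes in all, the kinase JNK (TRINITY_DN23378_c0_g1_i6) was at 8.13, 6.81 and 8.73 FPKM, JNK-interacting protein 3 (TRINITY_DN2938_c0_g1_i8) at 8.21, 8.64 and 14.0, and a JNK1-associated membrane protein (TRINITY_DN4295_c0_g1_i3) at 6.498, 5.93 and 8.26. The search for gut oxidases, which make microbicidal oxygen radicals, matched 2 unigenes, both low. NADPH oxidase 5 (TRINITY_DN14820_c0_g1_i10) was at 1.15, 1.15 and 1.47 FPKM. Dual oxidase maturation factor 1 (TRINITY_DN79716_c0_g1_i2), not itself an oxidase by name, was at 0.411, 0.103 and 1.16. No unigene was named for the enzyme dual oxidase, so its level is not known here.

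The 18 members that were 4-fold apart fell into few orders of flies. The shares beside them are over all unigenes, flat ones included. Orders among the 750 unigenes 4-fold apart were not counted, so these shares are no matched background. In 12 of the 18 members the order was fly 1, then fly 2, then fly 3, an order that 21.6% of all unigenes and 26.1% of the 69 had. These 12 were the 4 glucan sensors, 3 PGRP unigenes, lectin family 4 member F, CD109, 1 lysozyme and the spaetzle-like pair. In 4 of them fly 2 was lowest and fly 3 highest, the order of 44.5% of all unigenes: PGRP LE-like TRINITY_DN26582_c0_g1_i17 and 3 lectins. Of the remaining 2, 1 was the lectin TRINITY_DN11493_c0_g1_i3, with fly 1 lowest and fly 2 highest (5.29% of all unigenes), and 1 the SA-like unigene with equal values of 0 in flies 1 and 2 (a tie, 0.423%). Orders with fly 3 lowest were held by 4 members with fly 2 highest (5.80%, beside 6.95%) and 3 with fly 1 highest (4.35%, beside 8.96%). Fly 2 was lowest and fly 1 highest in 6 (8.70%, beside 12.2%). None of these 13 was 4-fold apart. The plot of profiles sets these members beside apolipophorins and uricase for the first order, and beside imd and caspase-8 for the second. Unigenes of these names were drawn only if they too were 4-fold apart and had the order of the panel. Their likeness to the members was thus set by the choice, and a further caspase-8 unigene, highest in fly 1, was left out by it. Median-of-ratios scaling changed the order in 2 of the 18, TRINITY_DN16317_c0_g1_i6 and TRINITY_DN488_c0_g1_i21, in which fly 3 was no longer highest. The genes beside the members were chosen for the plot after their values were seen, and no shared source or control was tested.

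**Figure D5:**
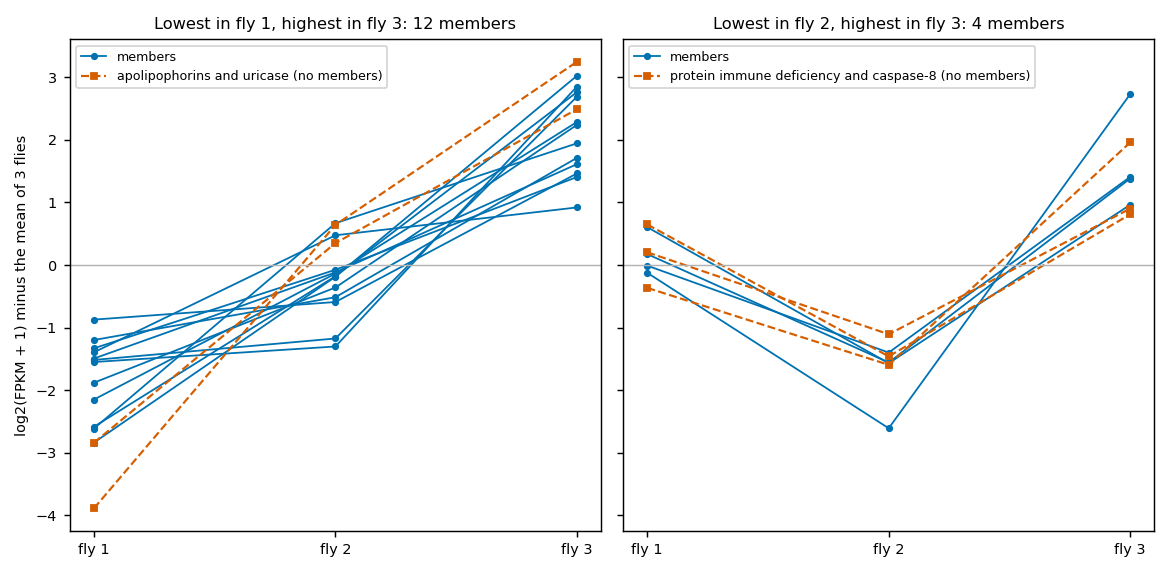
log2(FPKM + 1) minus the mean of the 3 flies (vertical axis) for the members at least 4-fold apart, with the flies on the horizontal axis, in no meaningful order. The left panel holds the 12 members with fly 1 lowest and fly 3 highest, the right panel the 4 with fly 2 lowest and fly 3 highest, and dashed lines are genes that are no members. Those genes were drawn only if they too were 4-fold apart and had the order of the panel.

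The 6 thioesterases, which are no immune genes by name, differed little between flies. None was 4-fold apart, all 6 reached an FPKM of 1 in each fly, and their median SD was 0.30 on the log2 scale, beside 0.60 for the 69. The most abundant, acyl-coenzyme A thioesterase 13-like (TRINITY_DN12716_c0_g1_i3), was at 17.1, 17.7 and 35.6 FPKM. The 3 named for cutting ubiquitin were otubain-like (TRINITY_DN1480_c0_g1_i6) at 23.1, 16.4 and 25.2 FPKM, trabid (TRINITY_DN3087_c0_g1_i99) at 16.0, 13.7 and 15.5, and OTU1 (TRINITY_DN3150_c0_g1_i3) at 15.9, 11.2 and 16.9. The last 2, palmitoyl-protein thioesterase 1 (TRINITY_DN2477_c0_g1_i12) and acyl-protein thioesterase 2 (TRINITY_DN14712_c0_g2_i13), were at 8.26, 6.04 and 9.78 FPKM and at 5.98, 5.30 and 5.65. Without these 6, the members held 0.340% ± 0.152 of all FPKM (SD, n = 3). Of these 63, 18 (28.6%) were 4-fold apart, beside 9.33% of all unigenes.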

How the data were processed

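Libraries were prepared from TRIzol-extracted total RNA with a KAPA kit, per the labels' protocols. The deposited table gives the FPKM of each unigene in each fly, per the file headers, with the length in bases and the percent identity of the best protein hit. For the assembler's version, the aligner, the counter and the protein database, the sources used here give nothing. The column numbered 4 was matched to the third fly by its description. FPKM multiplied by length summed to 1e+09 per fly, and its steps gave whole reads for 97.1% to 97.3% of unigenes within 0.001.

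FPKM values are not counts, so no count model was used. With 1 group there was no test and no p-value. Spread was taken on log2(FPKM + 1), which understates differences of low unigenes, with no filter. Limits for values of 0 are 3 fragments (6 reads). The members and lists were chosen with earlier results of these data known. Named are all members of the pathway roles, in other roles each with a mean of 5 FPKM or more or the top 3, the top 3 of each list, and each 4-fold gene of the other pathway lists, except that 22 proteases are given as a group. Others, given to complete a family or pathway, were chosen after their values were seen. Alternatives were the scaling, the pseudocount, the fold, the level filter, the breadth of the rule and leaving out each fly. Scripts were tested on simulated data (Python 3.11.15, numpy 2.4.6, pandas 2.3.3, matplotlib 3.10.9).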

Additional observations from a re-analysis of the deposited data

How the results depend on the processing

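No paired analysis was possible because the 3 flies form 1 group. The members' share of all FPKM ranged from 0.266% to 0.412% when 1 fly was left out and was 0.166% without the C-type lectins, an alternative chosen after seeing the data. The count of members 4-fold apart was 28 with a pseudocount of 0.1 (beside 16.8% of all unigenes) and 39 with a 2-fold line. Leaving out 1 fly gave 7 to 15, the lowest without fly 3, beside 2.95% to 6.56% of all unigenes. The median SD was 0.78 with a pseudocount of 0.1 and 0.33 to 0.69 when 1 fly was left out. No member lay 2-fold below both others in fly 3, and leaving out 1 fly gave 0 to 1. The cause of these moves was not tested. Median-of-ratios scaling turned the direction of fly 3 against the others for 14 of 53 named members, and rescaling without the 10 most abundant unigenes for 10. Neither turned any of the 18 named ones at least 2-fold above both others in fly 3, but this is no check of them. The factors of the first, 0.838 to 1.27, lie less than 2-fold apart and could not turn such a gap. The second moved the median of all unigenes in fly 3 less, to 0.21 in place of 0.02. Without direct replication of a fly, depth limits the 23 members with fewer than 100 reads in a fly.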
